A study of Homo sapiens with 6 samples.

Results

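The unfolded protein and ATF4 response was followed here through 40 genes that were picked by symbol from a list of the pathway, and all 40 were among the 60504 genes of the table. They were ordered by role into 6 sensors and transcription factors, 11 targets of the transcription factor ATF4, 6 cytosolic aminoacyl-tRNA synthetases, which are also ATF4 targets, and 17 genes of the endoplasmic reticulum (ER) chaperone arm. All 40 had at least 10 counts in total, and 39 received an adjusted p. The RNA came from WM164, a human melanoma cell line with the BRAF V600E mutation. Of 6 RNA-seq libraries, 3 came from cells given an empty expression vector (EV) and 3 from cells given an HDAC8 expression vector, so all cells of both groups had been transfected with a plasmid and kept under hygromycin. HDAC8 is a histone deacetylase, and the comparison asks which transcripts differ once cells carry its vector. The libraries of each group are called biological replicates, but whether they came from separate transfections or clones is not stated, so p-values measure only the spread between these libraries.

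When unfolded proteins gather in the ER, the sensors IRE1 (gene ERN1), PERK (gene EIF2AK3) and ATF6 are switched on. IRE1 splices XBP1 mRNA and ATF6 is cut to release a transcription factor, and both outputs raise ER chaperones and the machinery that removes misfolded proteins. PERK, like the amino acid sensor GCN2 (gene EIF2AK4), phosphorylates the translation factor eIF2, which lowers protein synthesis in general but favours translation of ATF4, a factor that raises genes of amino acid supply, tRNA charging and, under long stress, cell death.

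Both kinds of output have known DNA elements, and their letters were searched in RefSeq promoter windows that run from 250 bases before to 50 after a gene's start (GRCh38.p14). The elements were the ER stress response element (ERSE, CCAAT, then 9 bases of any kind, then CCACG), ERSE-II (ATTGG, 1 base of any kind, CCACG), the unfolded protein response element (UPRE, TGACGTGG) and the C/EBP-ATF response element to which ATF4 binds (CARE, TGATGNAA), each on both strands. A few windows are shown as examples of the elements, namely HERPUD1 with an element of each arm, HSPA5 with the ERSE of the main ER chaperone, and ASNS with the CARE of a classic ATF4 target. Sequences run 5′ to 3′ along the gene's strand, and capitals mark the fixed letters of each match.
HERPUD1, chr16:56931892-56932191, plus strand: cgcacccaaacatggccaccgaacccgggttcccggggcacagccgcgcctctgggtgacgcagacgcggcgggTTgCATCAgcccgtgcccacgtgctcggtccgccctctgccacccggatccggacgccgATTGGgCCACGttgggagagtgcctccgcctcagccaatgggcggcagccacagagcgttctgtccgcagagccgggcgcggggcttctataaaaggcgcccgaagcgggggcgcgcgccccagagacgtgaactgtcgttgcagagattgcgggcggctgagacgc
HSPA5, chr9:125241294-125241593, minus strand: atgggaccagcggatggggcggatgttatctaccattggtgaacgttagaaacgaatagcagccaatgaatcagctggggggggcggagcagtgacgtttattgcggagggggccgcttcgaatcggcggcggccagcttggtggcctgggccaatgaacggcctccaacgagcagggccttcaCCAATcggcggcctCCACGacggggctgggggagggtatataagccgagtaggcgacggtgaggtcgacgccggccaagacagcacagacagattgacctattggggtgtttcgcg
ASNS, chr7:97872359-97872658, minus strand: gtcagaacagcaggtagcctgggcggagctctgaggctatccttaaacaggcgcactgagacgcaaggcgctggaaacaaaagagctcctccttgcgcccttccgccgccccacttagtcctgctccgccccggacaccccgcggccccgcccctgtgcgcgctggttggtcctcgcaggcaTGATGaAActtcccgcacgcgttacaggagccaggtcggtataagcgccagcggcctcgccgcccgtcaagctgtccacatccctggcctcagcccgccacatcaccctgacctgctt
In the HERPUD1 window the capitals are, in order, the CARE on the minus strand from -176 to -169 and the ERSE-II from -117 to -107, counted from the start site. The ERSE of HSPA5 lies from -66 to -48 and the CARE of ASNS from -68 to -61. A match is a description of the sequence and not a bound site.

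Total counts ran from 34741092 to 42041453 per library. Values below are normalized counts, that is, counts divided by the size factor DESeq2 gave each library (0.918 to 1.17). HDAC8 mRNA, which an expression vector is meant to raise, was at 384, 404 and 479 in EV libraries 1 to 3 and at 485, 446 and 474 in HDAC8 libraries 1 to 3. The groups overlapped (log2 fold change 0.15, SE 0.28, DESeq2 adjusted p = 0.856, 95% interval of the fold 0.755 to 1.63), so this transcript gave no check of the labels. For that reason "lower" and "higher" refer below to libraries by label, HDAC8 relative to EV. HDAC8 library 1 stood apart from HDAC8 libraries 2 and 3 on the second principal component (12.5% of the variance), with scores of 12.49 against -9.72 and -4.27. Mitochondrially encoded genes took 9.66% to 12.8% of counts in EV and 4.46% to 7.94% in HDAC8 libraries. All 8 melanocyte markers had counts, and they summed to 244961 to 328761 normalized counts in EV but 137044 to 182218 in HDAC8 libraries, where 5 of 8 were lower and 0 higher (also 0 at an unadjusted p under 0.05). Of 5 leukocyte markers, CD68 made up most of a sum that ran from 2372 to 3355 in EV and from 4322 to 6279 in HDAC8 libraries, PTPRC had at most 3 counts in any library, and CD3E had 0 in every EV library and 92, 89 and 46 counts in HDAC8 libraries. Of the 3 leukocyte markers with an adjusted p, 2 were higher. Epithelial markers summed to 1834 to 2336 in EV and 2462 to 3359 in HDAC8 libraries, and fibroblast markers to 2347 to 2869 and 1150 to 2188. Most of the epithelial sum came from 1 gene with a mean of 2368 normalized counts. Of the 4 epithelial markers with an adjusted p, 3 had a negative and 1 a positive log2 fold change (median -0.98). Endothelial sums were 155 to 255 and 212 to 357. No gene of these last lists was called, and EPCAM, DCN and CDH5 had no counts. The part of these differences in the results below was not tested.

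Of the 39 members 7 were lower in the libraries labelled HDAC8 and 0 were higher by DESeq2, and the 7 came mostly from the ATF4 side of the response. ATF4 itself was lower, as were its targets TRIB3, SESN2, CEBPB, PSAT1 and DDIT3, and from the ER chaperone arm HERPUD1. The master ER chaperones HSPA5 and HSP90B1, the sensors and the tRNA synthetases did not pass the test. A gene was called at a DESeq2 adjusted p under 0.05, adjusted over all 21021 genes that received one, and a log2 fold change beyond 0.58 in either direction. Under this rule 5.44% of all genes were lower (1143) and 5.57% higher (1170), against 17.9% (7 of 39) and 0 of the members. The members are abundant, and among genes with a mean of at least 1000 normalized counts 8.18% were lower and 9.05% higher, against 7 of the 36 members at that level (19.4%). At an unadjusted p under 0.05 with the same fold minimum, 0 members were higher as well, and edgeR and limma-voom each called 0 higher. Without the fold minimum 2 members were higher and 9 lower, beside 6.63% and 6.38% of all genes. The 3 values of each group did not overlap for 13 members with HDAC8 libraries lower (33.3%, against 15.2% of all genes) and for 5 with HDAC8 libraries higher (12.8%, against 13.8%). Among genes with a mean of at least 1000 these shares were 21.2% and 20.0%. The median log2 fold change was -0.09 over the 39 members and -0.003 over all genes. These are bulk values, in which fewer cells of a kind and less RNA per cell cannot be told apart.

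**Figure D1:**
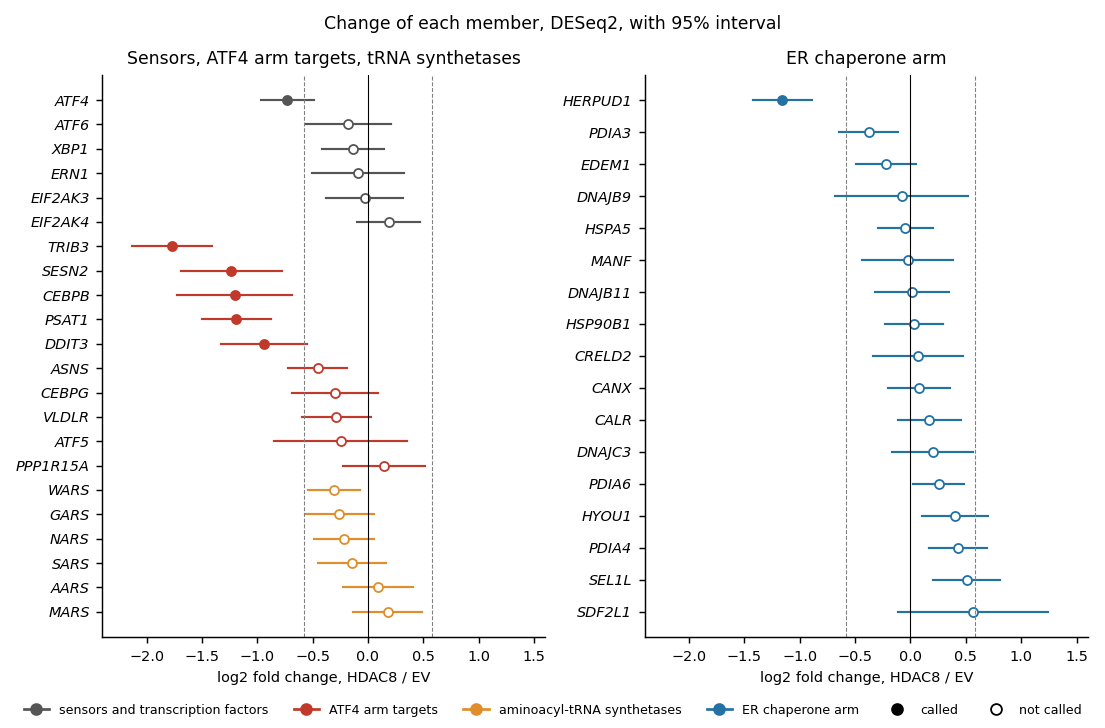
DESeq2 log2 fold change of each member, HDAC8 over EV libraries (horizontal axis, with 95% intervals), with sensors, ATF4 arm targets and tRNA synthetases on the left and the ER chaperone arm on the right. Filled points passed both thresholds, dashed lines mark log2 fold changes of 0.58 in either direction, and all 7 filled points lie left of the lower line.

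ATF4 mRNA (chr22:39519695-39522683, plus strand, GENCODE release 44, GRCh38) was at 19225, 21451 and 21041 in EV libraries 1 to 3 and at 13088, 12296 and 11831 in HDAC8 libraries 1 to 3. Every HDAC8 library lay well under every EV library, and ATF4 fell 1.66-fold (log2 fold change -0.73, SE 0.12, DESeq2 adjusted p = 1.27e-07). Per kilobase of its canonical transcript it was the most abundant member outside the ER chaperones, at 14498 normalized counts per kb in EV libraries and 8742 in HDAC8 libraries. Because stress raises ATF4 mainly through translation, its mRNA level is one input to the protein among others, which was not measured here.

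None of the other sensors and factors passed the test (DESeq2 adjusted p between 0.501 and 0.964). The kinases PERK and GCN2 had log2 fold changes of -0.03 and 0.19, and IRE1 (ERN1) of -0.09. GCN2 lay higher in all 3 HDAC8 libraries, at 4121, 3798 and 3626 against 3551, 3253 and 3332. ATF6 (-0.18) was at 3199.7, 5676 and 5082 in HDAC8 libraries 1 to 3 and XBP1 (-0.14) at 10530.3, 14124 and 13686, so for both HDAC8 library 1 was the low one and libraries 2 and 3 lay near the EV ranges of 4983 to 5543 and 13648 to 14391. XBP1 counts do not separate the spliced from the unspliced form, so they say nothing of IRE1 activity.

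The largest fall among the members was that of TRIB3, a pseudokinase that ATF4 and CHOP raise and that damps the response. TRIB3 (chr20:362835-397559, plus strand) stood at 4672, 6086 and 4621 normalized counts in EV libraries 1 to 3 and at 1691, 1599.7 and 1209.8 in HDAC8 libraries 1 to 3. The lowest EV library was above double the highest HDAC8 library, and the fall was 3.42-fold (log2 fold change -1.77, SE 0.19, DESeq2 adjusted p = 2.8e-19). SESN2, the leucine sensor that restrains mTORC1, stood at 2456, 3042 and 2323 and at 1414, 766 and 1141 in the same order. Its HDAC8 libraries spread widely, with library 2 lowest, but none reached the EV range (log2 fold change -1.23, SE 0.23, DESeq2 adjusted p = 3.81e-06). CEBPB, a C/EBP factor that pairs with ATF4, stood at 2385, 3596 and 1937 and at 772, 1443 and 1219.6. Here EV library 2 was the high one and HDAC8 library 1 the low one, and the groups still did not overlap (log2 fold change -1.21, SE 0.26, DESeq2 adjusted p = 1.2e-04).

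PSAT1, the aminotransferase of serine synthesis, stood at 5233, 4598 and 4719 in EV libraries 1 to 3 and at 1838, 2249 and 2299.9 in HDAC8 libraries 1 to 3. Each HDAC8 library held at most 2299.9, well under the lowest EV value, and PSAT1 fell 2.28-fold (log2 fold change -1.19, SE 0.16, DESeq2 adjusted p = 7.77e-12). DDIT3, which encodes the pro-apoptotic factor CHOP, stood at 1684, 1718 and 1842 and at 951, 773 and 1014. The EV libraries lay close together and all above the HDAC8 libraries (log2 fold change -0.94, SE 0.20, DESeq2 adjusted p = 6.15e-05). DDIT3 shares 355 exon bases, 27.2% of its exons, with MARS on the opposite strand, strand-specific counting is not stated, and MARS was the more abundant gene with a mean of 11253 normalized counts and no call, so some DDIT3 counts may belong to MARS. ASNS, the asparagine synthetase whose promoter is printed above, stood at 10161, 9163 and 10355 and at 6542, 7986 and 7119.6. All its HDAC8 libraries were lower than all EV libraries and its adjusted p passed, but its fold change was under the minimum (log2 fold change -0.46, SE 0.14, DESeq2 adjusted p = 0.0109).

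Of the 10 ATF4 targets with an adjusted p, 5 were lower (50%, against 5.44% of all genes) and 0 higher (against 5.57%) by DESeq2. A negative log2 fold change was found in 9. Groups did not overlap for 8 (80%), always with HDAC8 libraries lower, against 15.2% of all genes. At an unadjusted p under 0.05 6 targets had lower and 0 higher levels, and edgeR and limma-voom called 5 lower and 0 higher. The median log2 fold change of the 10 was -0.70. Together with the 6 synthetases, 5 of 16 genes were lower (31.25%) and 0 higher, with a median of -0.29. The targets that were not called had log2 fold changes of -0.29 for VLDLR, a lipoprotein receptor, -0.30 for CEBPG, another partner of ATF4, and -0.25 for the related factor ATF5, with DESeq2 adjusted p of 0.263, 0.401 and 0.737. The exception in sign was PPP1R15A (GADD34), the stress-induced subunit that lets a phosphatase reverse eIF2 phosphorylation. It stood at 1614, 2294 and 1936 in EV libraries and at 2368, 2077 and 2015 in HDAC8 libraries, with overlapping groups (log2 fold change 0.14, SE 0.19, DESeq2 adjusted p = 0.759). ATF5 shares 19.5% of its exon bases with NUP62 on the opposite strand. NUP62 was the more abundant gene (mean of 3414 normalized counts against 563) and had a log2 fold change of 0.41 without a call. Some ATF5 counts may therefore belong to NUP62. STC2, a secreted glycoprotein, had 9, 3 and 0 counts in EV and 15, 0 and 0 in HDAC8 libraries and received no adjusted p.

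**Figure D2:**
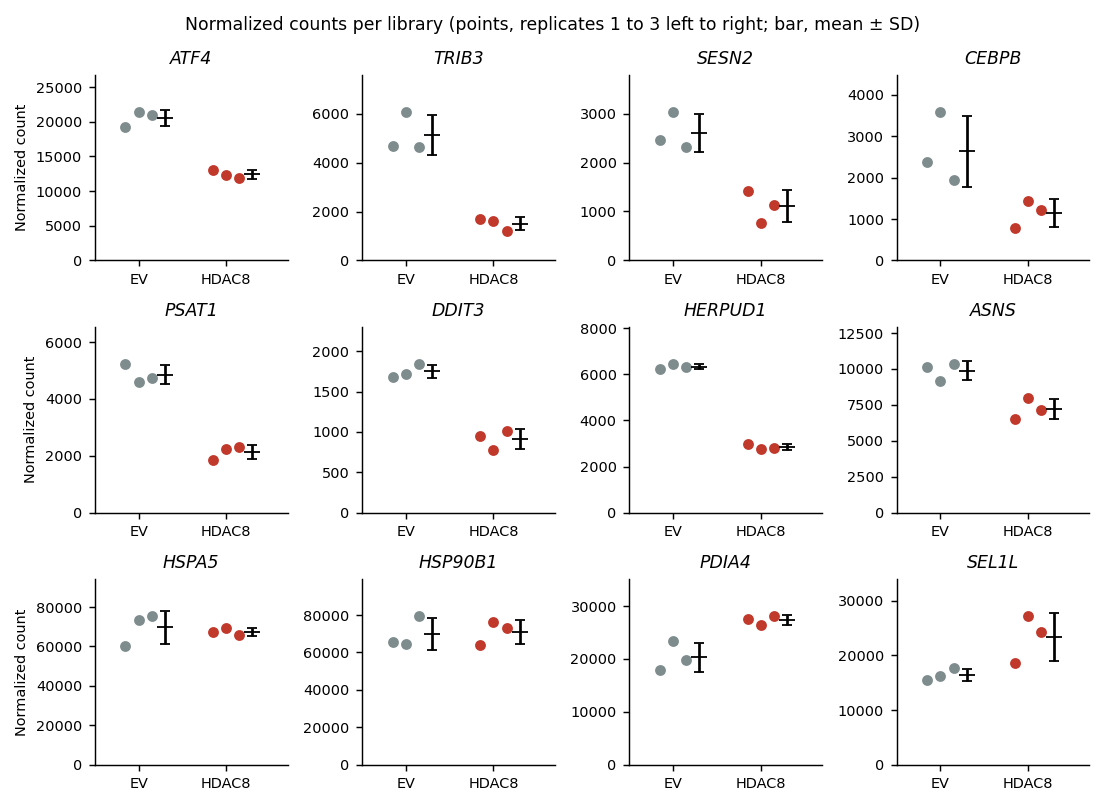
Normalized counts (vertical axes, each from 0) of the 7 called members and of ASNS, HSPA5, HSP90B1, PDIA4 and SEL1L in the EV and HDAC8 libraries (points, replicates 1 to 3 from left to right; bars, mean ± SD, n = 3). The 3 HDAC8 points of every called member lie below its 3 EV points, from TRIB3 at 1209.8 to 1691 against 4621 to 6086 to ATF4 at 11831 to 13088 against 19225 to 21451.

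The aminoacyl-tRNA synthetases, which load amino acids onto tRNAs and are raised by ATF4 when amino acids run short, were not called in either direction. By DESeq2 0 of the 6 were lower (against 5.44% of all genes) and 0 higher (against 5.57%). With so few genes, 0 calls do not set them apart from all genes. The edgeR and limma-voom fits also called 0, and the median log2 fold change was -0.18. At an unadjusted p under 0.05 only WARS had a lower level, and it stood at 12659, 12809 and 12444 in EV and at 9812, 10196 and 10688 in HDAC8 libraries. Its groups did not overlap, but the adjusted p missed the threshold (log2 fold change -0.30, SE 0.12, DESeq2 adjusted p = 0.0751). The others had log2 fold changes of -0.26 for GARS, -0.22 for NARS, -0.14 for SARS, 0.09 for AARS and 0.18 for MARS, with DESeq2 adjusted p from 0.347 to 0.839. Of the 6, 4 (AARS, GARS, MARS and NARS) held a CARE in their promoter windows.

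In the ER chaperone arm the groups did not overlap for 4 genes with HDAC8 libraries higher (23.5%, against 13.8% of all genes) and 3 with them lower (17.6%, against 15.2%). In this arm 15 of 17 genes had a mean of at least 1000 normalized counts. Over all genes at that level the shares were 20.0% higher and 21.2% lower. By DESeq2 1 of 17 genes was lower (5.88%, near the 5.44% of all genes) and 0 were higher (against 5.57%), with a median log2 fold change of 0.06. HERPUD1, a membrane protein that helps gather the complexes of ER-associated degradation, was that gene. HERPUD1 (chr16:56932142-56944864, plus strand) stood at 6231, 6455 and 6335 in EV libraries 1 to 3 and at 2978, 2758 and 2792 in HDAC8 libraries 1 to 3. Both groups were tight and far apart, and the mean was 6340.5 ± 112 (SD, n = 3) in EV and 2843 ± 119 (SD, n = 3) in HDAC8 libraries (log2 fold change -1.16, SE 0.14, DESeq2 adjusted p = 1.76e-15). The log2 fold changes of the other 16 genes of the arm lay between -0.38 and 0.57. Of the 4 genes with an unadjusted p under 0.05 and higher levels (PDIA4, SEL1L, HYOU1 and PDIA6), none reached the fold minimum, and edgeR and limma-voom also called 0 higher.

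The most abundant ER chaperones lay close to their EV levels. HSPA5 (BiP), the Hsp70 that holds the sensors inactive, stood at 60191, 73449 and 75396 in EV and at 67106, 69586 and 65632 in HDAC8 libraries. The groups overlapped, and its fold was bounded between 0.814 and 1.15 at the 95% level (log2 fold change -0.05, SE 0.13, DESeq2 adjusted p = 0.911). HSP90B1 (GRP94), the ER Hsp90, had a log2 fold change of 0.03 (DESeq2 adjusted p = 0.953) with an interval of the fold of 0.851 to 1.22. The lectin chaperones calreticulin and calnexin, which fold glycoproteins, had 0.17 (DESeq2 adjusted p = 0.558) for CALR and 0.07 (DESeq2 adjusted p = 0.858) for CANX. Per kilobase these were also the highest members in EV libraries, with 25371 normalized counts per kb for CALR, 25062 for HSP90B1, 17771 for HSPA5 and 15241 for CANX, against 2222 for HERPUD1 and 139.6 for ERN1, the lowest member but STC2.

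The protein disulfide isomerases, which form and shuffle disulfide bonds, did not share a direction. PDIA4 stood at 17963, 23352 and 19765 in EV and at 27578, 26349 and 28099 in HDAC8 libraries, with every HDAC8 library higher (log2 fold change 0.43, SE 0.13, DESeq2 adjusted p = 0.0159). PDIA3, the isomerase that works with calnexin and calreticulin, stood at 26496, 27589 and 30505 and at 18827, 24182 and 22178, with every HDAC8 library lower (log2 fold change -0.38, SE 0.14, DESeq2 adjusted p = 0.045). Both passed the adjusted p alone and missed the fold minimum, in opposite directions. PDIA6 was higher in all 3 HDAC8 libraries, at 19615, 18617 and 18104 against 15102, 15948 and 16168, without passing the test (log2 fold change 0.25, SE 0.12, DESeq2 adjusted p = 0.152). PDIA6 shares 25.2% of its exon bases with ATP6V1C2 on the opposite strand, a far less abundant gene (mean of 155 normalized counts against 17259 for PDIA6).

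Among the other genes of the arm, SEL1L, the adaptor of the ubiquitin ligase HRD1 in ER-associated degradation, stood at 15426, 16147 and 17708 in EV libraries 1 to 3 and at 18601, 27175 and 24290.2 in HDAC8 libraries 1 to 3. Every HDAC8 library was higher and library 1 was nearest to the EV values (log2 fold change 0.51, SE 0.15, DESeq2 adjusted p = 0.0108), and SEL1L passed both thresholds when HDAC8 library 1 was left out (log2 fold change 0.65). HYOU1, the large ER Hsp70 that exchanges nucleotide on BiP, stood at 15895, 22532 and 17739 and at 27521, 23214 and 23615. Its groups did not overlap either, and its adjusted p missed the threshold (log2 fold change 0.40, SE 0.15, DESeq2 adjusted p = 0.0577). The adjusted p of SEL1L, PDIA4, PDIA3 and ASNS rose above 0.05 without EV library 1 or HDAC8 library 3 among others, to at most 0.117, 0.194, 0.286 and 0.118. EDEM1, a lectin that passes misfolded glycoproteins on for degradation, was lower in every HDAC8 library without passing the test (log2 fold change -0.22, SE 0.14, DESeq2 adjusted p = 0.356).

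In several of the remaining genes of the arm HDAC8 library 1 stood apart from HDAC8 libraries 2 and 3. SDF2L1, a BiP cofactor, stood at 1889.7, 589.9 and 865 in HDAC8 libraries 1 to 3 and at 678, 872 and 710.3 in EV libraries. The first of these was above double either of the others, its log2 fold change was 0.57 (DESeq2 adjusted p = 0.34), and this became -0.05 without HDAC8 library 1 and 0.87, past both thresholds, without HDAC8 library 2. The BiP co-chaperone DNAJB9, which represses IRE1, stood at 509, 1020.1 and 1082 in HDAC8 libraries and at 981, 679.9 and 1097 in EV libraries, and CRELD2, a secreted stress protein, at 2340.4, 1438 and 1796 and 1792, 1785 and 1754. In DNAJB9 library 1 was the low one and in CRELD2 the high one. MANF, a secreted survival factor (-0.03), DNAJB11 (0.01) and DNAJC3 (0.20), which are further BiP co-chaperones, had DESeq2 adjusted p of 0.606 or more, as did DNAJB9 and CRELD2.

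Set side by side in each library, the ATF4 targets lay lower in all 3 HDAC8 libraries, and the ER chaperone arm lay within its EV range. The mean log2(normalized count + 1) over the 10 ATF4 targets, minus the mean of the EV libraries, was -0.004, 0.13 and -0.12 in EV libraries 1 to 3 and -0.76, -0.72 and -0.77 in HDAC8 libraries 1 to 3. The HDAC8 values lay within 0.05 of each other, HDAC8 library 1 included. Over the 17 genes of the ER chaperone arm the same mean was -0.09, 0.02 and 0.06 in EV and 0.00, 0.04 and 0.05 in HDAC8 libraries, and these overlapped. The sensors and transcription factors were at -0.29, -0.14 and -0.09 and the synthetases at -0.07, -0.14 and -0.14 in HDAC8 libraries. These means are descriptions with no test. The 7 called members kept their calls when any 1 of the 6 libraries was left out, HDAC8 library 1 included, and 3 of them (HERPUD1, PSAT1 and TRIB3) also passed a test against the fold minimum itself.

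**Figure D3:**
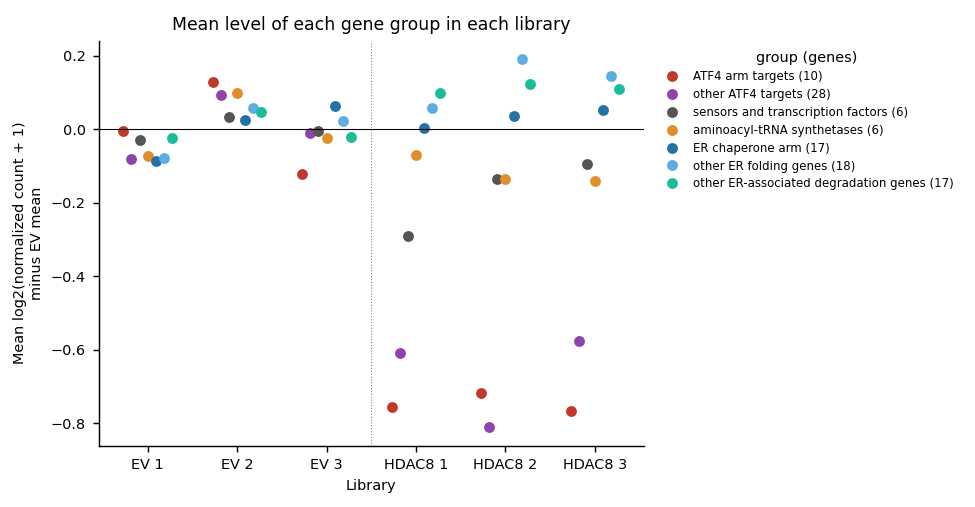
Mean over each gene group of log2(normalized count + 1) minus the mean of the EV libraries (vertical axis), in each of the 6 libraries (horizontal axis), with the number of genes in brackets. The ATF4 arm targets lie between -0.77 and -0.72 in the HDAC8 libraries and the ER chaperone arm between 0.00 and 0.05.

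The promoter windows did not divide the members along the same line as their changes. RefSeq windows were at hand for 39 of the 40 members, all but PDIA3, and for 27305 genes in all, and a gene with several starts was counted once. An ERSE was found in 7 members (CALR, CANX, CRELD2, HSP90B1, HSPA5, PDIA6 and XBP1), against 0.0916% of all genes, and none of the 7 was called by DESeq2, edgeR or limma-voom. The core of this element read CCAATcggcggcctCCACG in HSPA5, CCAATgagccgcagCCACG in PDIA6 and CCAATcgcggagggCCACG in XBP1, and CANX held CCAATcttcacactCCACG. An ERSE-II was found in HERPUD1 as ATTGGgCCACG, in HYOU1 and in SDF2L1 (0.0696% of all genes), and a UPRE in HYOU1 alone (0.927%), where it overlaps an ERSE-II.

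A CARE was found in 7 members (AARS, ASNS, CEBPG, GARS, HERPUD1, MARS and NARS), against 4.46% of all genes, and of these HERPUD1 alone was called. It read TGATGaAA in ASNS, TGATGcAA in CEBPG and NARS, and TTgCATCA on the minus strand in HERPUD1, AARS and MARS. HERPUD1 was the one member whose windows held an element of each arm. No match to any of the 4 elements lay in the windows of ATF4, TRIB3, SESN2, CEBPB, PSAT1 or DDIT3, which says only that these letters are not within this stretch. The members were picked as genes of this response, so a high share of its elements among them is no finding about these libraries.

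More of the other known ATF4 targets were lower than higher. The list of 29 further targets was written with earlier results of these data known, so it is not an independent check. Of these 28 received an adjusted p. By DESeq2 14 were lower (50%, against 5.44% of all genes) and 3 higher (10.7%, against 5.57%), and the median log2 fold change was -0.60. Groups did not overlap for 18 with HDAC8 libraries lower (64.3%, against 15.2% of all genes) and for 3 with them higher (10.7%, against 13.8%). Among the largest falls GDF15, a secreted stress hormone, stood at 27543, 39517 and 28623 in EV and at 8873, 9403 and 10229.6 in HDAC8 libraries. EV library 2 was the high one, and every HDAC8 library lay far under every EV library (log2 fold change -1.75, SE 0.16, DESeq2 adjusted p = 1.08e-26). CTH, which makes cysteine from cystathionine, stood at 2462, 2238 and 2149.5 and at 679, 767 and 782, with both groups tight (log2 fold change -1.62, SE 0.18, DESeq2 adjusted p = 2.31e-16). The glycine transporter SLC6A9 had the largest log2 fold change but few reads, with 71, 102 and 123 counts in EV and 10, 0 and 21 in HDAC8 libraries (log2 fold change -3.22, SE 1.02, DESeq2 adjusted p = 0.0171).

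The remaining 11 called targets with lower levels were named after their values were seen, and their log2 fold changes ran from -1.52 to -0.68. They were the stress factors ATF3, JDP2 and NUPR1 (-1.39, -1.52 and -1.30), the cystine transporter SLC7A11 (-1.46), the amino acid transporters SLC7A5 and SLC7A1 (-0.74 and -0.68), the serine, one-carbon and transsulfuration enzymes PSPH, MTHFD2 and CBS (-0.81, -0.79 and -0.95), the mTORC1 inhibitor DDIT4 (-0.99) and the small GTPase RIT1 (-0.80), with DESeq2 adjusted p of 0.0112 or less. SLC7A11 stood at 30942, 28424 and 31031 in EV and at 7799, 13233 and 11817 in HDAC8 libraries, far apart. The 11 targets that were not called had log2 fold changes of both signs. SHMT2, SLC38A2, EIF4EBP1, VEGFA, PCK2, PHGDH and ALDH1L2 were at -0.51, -0.43, -0.42, -0.37, -0.36, -0.12 and -0.09. GPT2, SLC3A2, PYCR1 and CHAC1 were at 0.02, 0.13, 0.22 and 0.30. The named enzymes and transporters thus do not stand for every listed gene of amino acid synthesis and transport. Without EV library 2, 9 rather than 14 of the list were called lower. The calls lost then were those of SLC6A9, PSPH, RIT1, SLC7A1 and SLC7A5, of which the last 2 stayed past the adjusted p with log2 fold changes of -0.57 and -0.56. SLC6A9 lost its call without any 1 EV library, PSPH also without EV library 1 or HDAC8 library 2 or 3, and RIT1 also without EV library 3. The 3 higher targets were ALDH18A1, the enzyme that opens proline synthesis (log2 fold change 0.75, SE 0.13, DESeq2 adjusted p = 1.64e-07), the glucocorticoid-induced TSC22D3 (log2 fold change 1.22, SE 0.42, DESeq2 adjusted p = 0.0333) and KLHL24 (log2 fold change 0.63, SE 0.20, DESeq2 adjusted p = 0.0156). ALDH18A1 kept its call whichever library was left out. TSC22D3 lost it without EV library 1 or 2 or HDAC8 library 1 or 2, and KLHL24 without EV library 1 or 2 or HDAC8 library 2 or 3.

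**Figure D4:**
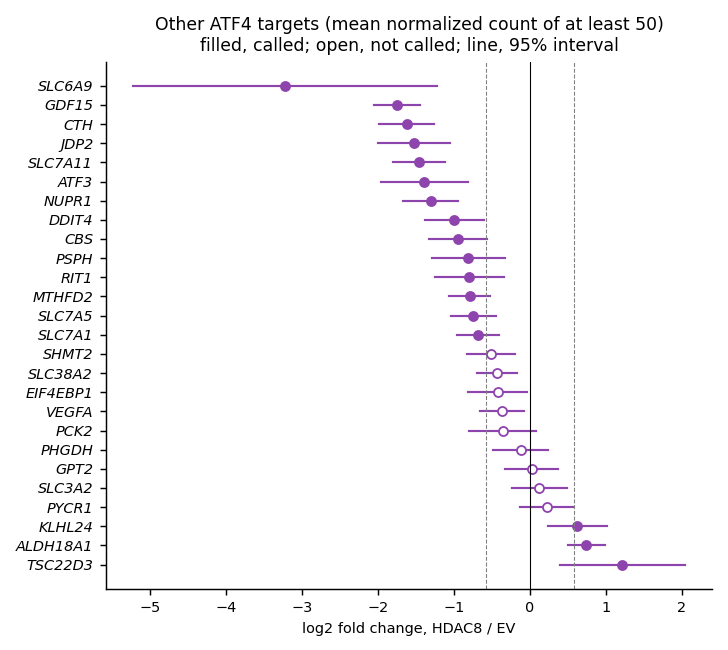
DESeq2 log2 fold change, HDAC8 over EV libraries, of the other ATF4 targets with a mean of at least 50 normalized counts (horizontal axis, with 95% intervals; filled points were called, dashed lines mark 0.58 in either direction). The 14 filled points of lower genes lie left of the left dashed line, and the 3 of higher genes right of the right one.

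Further genes of ER folding and degradation were read against the 5.57% of all genes called higher and the 5.44% called lower. Of 18 other ER folding genes 2 were higher and 0 lower by DESeq2 (1 had a lower level at an unadjusted p under 0.05), with a median log2 fold change of 0.16. The higher ones were the disulfide isomerase TXNDC5, at 5898, 7388 and 6179 in EV and 11307, 11146 and 10835 in HDAC8 libraries (log2 fold change 0.77, SE 0.14, DESeq2 adjusted p = 8.44e-07), and the prolyl isomerase FKBP14 (log2 fold change 0.59, SE 0.19, DESeq2 adjusted p = 0.015), whose call was lost without EV library 2 or 3 or HDAC8 library 2 or 3 and with limma-voom. Of 17 other genes of ER-associated degradation 1 was higher and 1 lower, with a median of 0.12. DERL1, part of the channel that moves proteins out of the ER, was higher (log2 fold change 0.81, SE 0.16, DESeq2 adjusted p = 1.57e-05), and EDEM2, a mannosidase that marks glycoproteins for removal, was lower (log2 fold change -0.76, SE 0.19, DESeq2 adjusted p = 0.00126). Of 14 other cytosolic synthetases VARS alone was called, and it was higher, at 5360.5, 7536 and 5391 in EV and 13296, 10564 and 10242 in HDAC8 libraries (log2 fold change 0.90, SE 0.17, DESeq2 adjusted p = 5.51e-06), with a median of 0.10 over the list.

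Among 22 genes of the eIF2 and stress signalling machinery that received an adjusted p, 5 were higher (22.7%, against 5.57% of all genes) and 2 lower (9.09%, against 5.44%). Their median log2 fold change was 0.30. Of the 22, 17 had a mean of at least 1000 normalized counts, a level at which 9.05% of all genes were higher and 8.18% lower. CREB3L2, an ER-bound transcription factor that is cut and released as ATF6 is, stood at 9659, 10063 and 10627 in EV and at 18588, 24229 and 23751 in HDAC8 libraries. Every HDAC8 library held more than every EV library (log2 fold change 1.13, SE 0.14, DESeq2 adjusted p = 8.3e-14). WFS1, an ER membrane protein (log2 fold change 0.71, SE 0.22, DESeq2 adjusted p = 0.0124), and RTCB, the ligase that joins the XBP1 exons after IRE1 has cut them (log2 fold change 0.71, SE 0.22, DESeq2 adjusted p = 0.0146), were higher too, and for RTCB HDAC8 library 1 at 6477 stood above HDAC8 libraries 2 and 3 at 3552 and 3484. Both WFS1 and RTCB lost their calls without EV library 1 or 3, WFS1 also without HDAC8 library 3, and RTCB also without HDAC8 library 1 (log2 fold change 0.35). Also higher were ATF6B and MBTPS2, which were named after their values were seen. Their log2 fold changes were 0.58 and 0.61 (DESeq2 adjusted p = 0.00891 and 0.0181). The lower genes were PPP1R15B, the constitutive partner of the eIF2 phosphatase, at 8418, 8706 and 8866 against 4202, 5428 and 5019 (log2 fold change -0.83, SE 0.14, DESeq2 adjusted p = 4.14e-07), and EIF2S2, the beta subunit of eIF2 (log2 fold change -0.85, SE 0.15, DESeq2 adjusted p = 6.39e-07). The members' closest gene copies were at most 0.388% of the level of the member they resemble, PDIA3P1 being the highest.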

How the data were processed

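RNA from 6 WM164 libraries was sequenced, and the authors used Trimmomatic for trimming, STAR for alignment to the transcriptome and RSEM for quantification. Their deposited table holds unscaled expected counts, one column per library. The genome build and annotation release the authors used are not given in the sources used here. Expected counts were rounded, and genes with a total of at least 10 were tested with DESeq2 1.42.0 in R 4.3.3 (two-sided Wald test, 3 EV against 3 HDAC8 libraries), with Benjamini-Hochberg adjustment over all genes; intervals are 95% intervals from its standard errors. The fits were tested on simulated data. Alternatives were edgeR 4.0.16, limma 3.58.1 (voom), other size factors, filters and thresholds, a replicate block and leaving out each library.

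The labels gave each library's group and replicate number. Same-numbered libraries did not deviate together (correlations over genes -0.130, -0.318 and 0.157), so the numbers were not taken as pairs. The members, the further gene lists and the rule for named genes were chosen with earlier results of these data known. The rule names all members, HDAC8, the marker genes and, from each further list, the up to 3 called genes with the largest rise and fall and a mean of at least 50 normalized counts. AARS, GARS, MARS, NARS, SARS and WARS are the symbols of the table. Gene positions and canonical transcript lengths came from GENCODE release 44 (GRCh38) by Ensembl identifier, and promoter windows from RefSeq (GRCh38.p14) by symbol. Reads carry no molecular identifiers, so counting error is a lower limit.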

Additional observations from a re-analysis of the deposited data

How the results depend on the processing

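The 7 member calls, all lower, were kept under edgeR, limma-voom, other size factors, other filters, the replicate block, leaving out mitochondrially encoded genes and leaving out each library in turn. A test against the fold minimum itself left 3 members lower, 2 of 16 in the ATF4 arm with synthetases, 5 lower and 0 higher of the 28 other ATF4 targets, and 292 higher and 291 lower of all genes. Dropping the fold minimum gave 2 members higher, 2 of the ER chaperone arm higher and 2 lower. Unadjusted p gave 1839 genes higher and 1856 lower. With the replicate block 1 other ATF4 target was higher rather than 3 (TSC22D3 and KLHL24 were no longer called, nor were FKBP14, SSR1 and CHORDC1), and no member call changed. With each library left out in turn, genes lower ran from 746 (without EV library 3; 767 without EV library 1) to 1378, members higher from 0 to 1 and ER chaperone arm genes higher from 0 to 1, other ATF4 targets higher from 1 (without EV library 1, EV library 2 or HDAC8 library 2) to 3 and lower from 9 (without EV library 2) to 15. Signs turned for members that were not called with all libraries, of which SDF2L1 was called higher without HDAC8 library 2. With total-count size factors the log2 fold change of EIF2AK3 was 0.0082 and that of MANF 0.011, and with limma-voom that of STC2 was -0.69. With each library left out it ran from -0.34 to 0.030 for ATF6, -0.16 to 0.0047 for ERN1, -0.19 to 0.085 for EIF2AK3, -0.076 to 0.21 for AARS, -0.14 to 0.0074 for HSPA5, -0.027 to 0.13 for HSP90B1, -0.0097 to 0.20 for CANX, -0.26 to 0.19 for DNAJB9, -0.072 to 0.087 for DNAJB11, -0.053 to 0.87 for SDF2L1, -0.14 to 0.22 for CRELD2 and -0.20 to 0.14 for MANF. The share of calls that were higher was 50.6%, and 56.4% with total-count size factors. The cause of these shifts was not tested. At 3 libraries a group even the abundant HSPA5 had a 95% interval of the fold from 0.814 to 1.15, and STC2 lay too near 0 counts to be read.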

Other observations

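Neighbouring protein folding systems were read from the same fit. Of 16 cytosolic heat shock genes 1 was higher and 1 lower (6.25% each, against 5.57% and 5.44% of all genes), with a median log2 fold change of 0.20. HSPA1A, the inducible cytosolic Hsp70, stood at 6593, 7683 and 6852 in EV libraries 1 to 3 and at 13687, 9821 and 9896 in HDAC8 libraries 1 to 3. All HDAC8 libraries were higher, library 1 most so (log2 fold change 0.66, SE 0.16, DESeq2 adjusted p = 7.27e-04), and the call was lost without library 1 (log2 fold change 0.48). CHORDC1, an Hsp90 co-chaperone, stood at 3346, 2505 and 2929 and at 1541, 2526 and 1699.9. Its groups overlapped although it passed the test (log2 fold change -0.61, SE 0.21, DESeq2 adjusted p = 0.0371), and its call was lost without EV library 1 or 3 and without HDAC8 library 1 or 3.

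Of 16 genes of the ER translocon, through which new proteins enter the ER, 1 was higher by DESeq2 (6.25%, against 5.57% of all genes) and 0 lower (against 5.44%). At an unadjusted p under 0.05 1 had a lower level, and edgeR and limma-voom each called 0 lower. The median log2 fold change was 0.12. SSR1, a subunit of the complex that accompanies the channel, stood at 10615, 9193 and 10468 in EV and at 10027, 19824 and 17403 in HDAC8 libraries. HDAC8 library 1 lay among the EV libraries and libraries 2 and 3 far above them (log2 fold change 0.64, SE 0.20, DESeq2 adjusted p = 0.0149), and the call was kept without HDAC8 library 1 but lost without any other library and with limma-voom. Over the list the mean log2(normalized count + 1) minus that of the EV libraries was -0.12, 0.15 and 0.17 in HDAC8 libraries 1 to 3, so library 1 differed in sign from the others.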
